A study of Mus musculus with 16 samples.

Results

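The genes described here encode the collagen chains, the laminin chains and the integrin subunits, together the main fibres, sheets and cell-surface receptors of the extracellular matrix. They were taken from the read-count table by symbol: Col, a number, a and a number for collagens, Lama, Lamb or Lamc with a number for laminins, and symbols that begin with Itga or Itgb for integrins. The rule leaves out an alpha subunit gene, not analysed here, and genes of proteins that only bind integrins. It found 82 genes among 24060 lines, namely 44 collagens, 11 laminin chains, 17 integrin alpha genes and 10 integrin beta genes. Of the beta genes, Itgb2l and Itgbl1 are named for their likeness to the family. The rule reads symbols and no measured value, but this gene family was picked for description with earlier results of these data known.

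RNA came from whole striata of male C57BL/6J wild-type mice aged 9 weeks whose astrocytes expressed either bARK or bARK(D110A). bARK is the peptide that the study's title calls iβARK, made to attenuate Gq signalling of receptors in astrocytes, and bARK(D110A) is its counterpart with a substitution and serves here as the control. From each construct there were 4 libraries of cleared lysate, called input, and 4 libraries of RNA pulled down through a hemagglutinin tag on astrocyte ribosomes, called IP, which makes 16 libraries in 4 groups. All groups share strain, sex, age and tissue, and every group carries a construct, so no group is free of one. The promoter or virus that drove expression is not given in the sources used here. The text on the design counts 4 mice and the labels number the libraries of each construct 1 to 4, without saying in words that each number is a separate mouse. P-values therefore measure the spread between these libraries.

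Laminins are trimers of an alpha, a beta and a gamma chain that assemble into the sheet-like basement membrane around brain vessels and under the pia. Type IV collagen gives that sheet its network, while fibrillar collagens form the cables of meninges and larger vessels. Integrins are pairs of an alpha and a beta subunit that hold cells to these proteins and signal into the cell. In brain, astrocyte endfeet face the vessel across a basement membrane that astrocytes and vessel cells both lay down. The pair of the Itgav and Itgb8 products on astrocytes is known for activating latent TGF-β near vessels.

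The libraries held 27807178 to 51432173 counted reads, with every IP library deeper than every input library. No marker of the 9 cell-type lists was at 0 in all IP libraries. All 10 astrocyte markers were higher in IP than in input under both constructs, and their summed level was 5270 to 6194 CPM in bARK(D110A) input and 28263 to 34775 CPM in bARK(D110A) IP, where CPM is read counts scaled to a common library total (edgeR's cpm). All 10 endothelial and all 10 microglial markers were lower in IP under both constructs. The first principal component over all genes, with 80.7% of the variance, separated IP from input, and the second, with 4.5%, had bARK(D110A) mouse 1 at one end and bARK(D110A) mouse 3 at the other, in input and IP alike. Leaving out those mice ended 6 member calls of IP against input in bARK(D110A). Of the 6, Col1a2 and Col6a5 are given below, and the others were Col2a1 (from an adjusted p of 0.016 to 0.0619), Col6a2 (0.00725 to 0.206), Col9a2 (0.0407 to 0.0789) and Itgad (0.0425 to 0.0762). Their log2 fold changes went from -0.82 to -0.87, from -0.39 to -0.26, from 0.32 to 0.38 and from -1.22 to -1.49. Among these, only Col6a2 moved toward 0, and fewer bARK(D110A) libraries remained for the test. In bARK, leaving out the same mice added 2 calls, Col4a6, given below, and Itgb7, at -0.87 (adjusted p = 0.0143).

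The astrocyte pull-down held more of some matrix and adhesion genes and less of others. Of the 78 members that passed the filter on low counts, 25 were higher and 35 were lower in IP than in input in bARK(D110A), against 36.5% of all 15850 tested genes higher and 37.2% lower. In bARK, 25 members were higher and 33 lower, against 37.6% and 38.1% of all tested genes. A gene counts as higher or lower here when its adjusted p in edgeR's quasi-likelihood test, with Benjamini-Hochberg adjustment over all tested genes, is under 0.05. The members' shares, 32.1% higher and 44.9% lower in bARK(D110A), lay within 10 percentage points of those backgrounds. The median log2 fold change of the members was -0.38 in bARK(D110A) and -0.18 in bARK, and that of all tested genes was -0.01 in each.

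The same 24 members were higher and the same 31 lower under both constructs, 15 passed in neither, and no member was higher under one construct and lower under the other. The remaining 8 passed under one construct. These were Col2a1, Col7a1, Itgad and Itgb7, lower in bARK(D110A), Lamb1, higher in bARK(D110A), Col4a4, higher in bARK, and Itgbl1 and Lamb3, lower in bARK. The test of the difference between constructs, given further on, called none of them. Of these 8, Col7a1, Itgad and Itgbl1 passed the count filter only through input and Col4a4 only through IP, where they were high. A lower value in IP than in input is a smaller share of the reads in the pull-down, and it does not give the level per cell. Between constructs, a lower level can come from fewer cells of a type or from less RNA per cell, and the measurements cannot tell these apart.

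**Figure D1:**
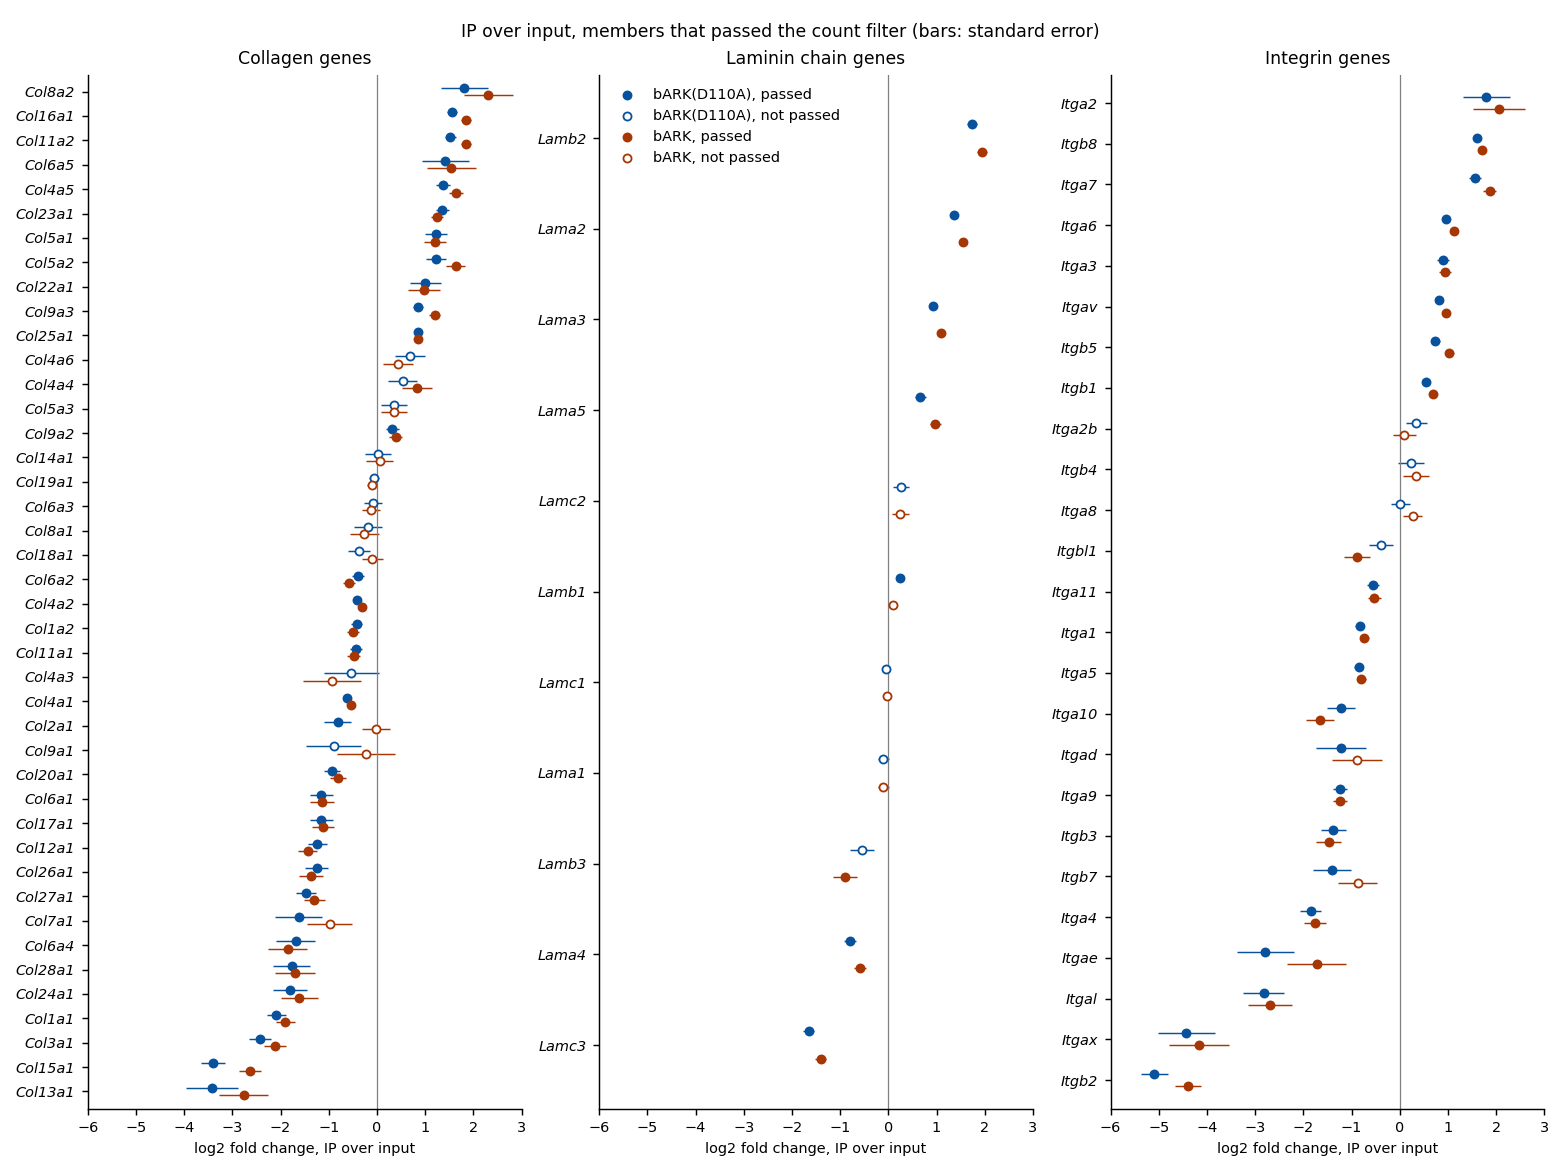
Log2 fold change of IP over input for the 78 members that passed the count filter, with blue points for bARK(D110A), red points for bARK, filled points for an adjusted p under 0.05 in edgeR's test and bars for the standard error. Laminin and integrin genes spread to both sides of 0, from 2.06 for Itga2 in bARK to -5.09 for Itgb2 in bARK(D110A), and the constructs lie close together for most genes.

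Among the laminin chains, 5 of 11 were higher and 2 lower in IP in bARK(D110A), and 4 were higher and 3 lower in bARK. Of all tested genes, 36.5% were higher and 37.2% lower in bARK(D110A), and 37.6% and 38.1% in bARK, and no class was tested as a set. The chains that were higher included Lama2, the alpha chain of the laminin of muscle and astrocyte endfeet, and Lamb2, a beta chain of mature basement membranes. Lama2 stood at 30.1, 33.7, 25.1 and 29.1 CPM in bARK(D110A) input libraries 1 to 4 and at 80.6, 72.1, 71.5 and 77.8 CPM in bARK(D110A) IP libraries 1 to 4. It stood at 26.8, 26.5, 24.8 and 25.6 CPM in bARK input and at 76.2, 77.6, 74.4 and 73.4 CPM in bARK IP. Every IP library lay above every input library, and the log2 fold change was 1.36 ± 0.07 in bARK(D110A) (adjusted p = 1.39e-11) and 1.54 ± 0.07 in bARK (adjusted p = 2.42e-12), where ± is the standard error with 4 libraries a group, here and after every log2 fold change. Where a pair of such values follows with no construct named, the first is from bARK(D110A) and the second from bARK, and IP is set against input.

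Lamb2 had the largest log2 fold change of the laminin chains under both constructs. Its level was 29.0, 27.0, 22.1 and 21.7 CPM in bARK(D110A) input and 97.4, 76.0, 78.4 and 80.7 CPM in bARK(D110A) IP. In bARK it was 23.5, 23.2, 23.1 and 23.1 CPM in input and 80.4, 101, 85.3 and 90.6 CPM in IP. The groups of input and IP did not overlap, with log2 fold changes of 1.74 ± 0.10 (adjusted p = 9.19e-11) and 1.94 ± 0.10 (adjusted p = 2.03e-11). Lama5, an alpha chain known from vessels and epithelia, was higher by 0.66 ± 0.12 and 0.97 ± 0.12 on the log2 scale, and Lama3, an alpha chain best known from skin, by 0.93 ± 0.08 and 1.10 ± 0.08, each past the threshold under both constructs.

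Other laminin chains did not all follow. Lamc1, the gamma chain shared by most laminins, stood at 63.9, 65.9, 62.0 and 65.8 CPM in bARK(D110A) input and at 70.2, 61.1, 59.2 and 60.2 CPM in bARK(D110A) IP, and at 68.3, 64.4, 66.5 and 68.8 CPM in bARK input and 65.0, 65.9, 64.5 and 68.5 CPM in bARK IP. These ranges overlap, and the log2 fold changes of -0.04 ± 0.05 and -0.02 ± 0.05 did not pass (adjusted p = 0.487 and 0.699). Scaling by library size alone lowers the median of all genes to -0.16 and -0.15, and under it Lamc1 was called lower, at -0.20 and -0.16. Lamb1, the beta chain found early in development, was higher in bARK(D110A) at 0.24 ± 0.08 (adjusted p = 0.0121) but not past the threshold in bARK at 0.10 ± 0.08 (adjusted p = 0.253), and scaled by library size alone it passed in neither, at 0.08 and -0.04. With mice as a block the value of Lamb1 in bARK, 0.10, had an adjusted p of 0.0421.

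Lama1, an alpha chain of the pial membrane, was at -0.10 ± 0.12 and -0.11 ± 0.11 and did not pass, though scaled by library size alone it was called lower, at -0.26 and -0.25. Lama4, an alpha chain of endothelial basement membrane, was lower in IP. It stood at 6.41, 6.54, 6.24 and 7.30 CPM in bARK(D110A) input and 3.79, 3.54, 4.55 and 3.32 CPM in bARK(D110A) IP, and at 5.86, 7.82, 6.99 and 6.30 CPM in bARK input and 5.07, 4.92, 4.00 and 3.93 CPM in bARK IP. No IP library reached the lowest input library of its construct, and the log2 fold changes were -0.80 ± 0.12 (adjusted p = 1.72e-05) and -0.59 ± 0.12 (adjusted p = 0.000351).

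Lamc3, a gamma chain reported in brain and retina, had the lowest log2 fold change of the chains, -1.65 ± 0.12 in bARK(D110A) and -1.41 ± 0.12 in bARK (adjusted p = 9.46e-10 and 5.77e-09). It fell from 7.11, 7.31, 6.72 and 5.73 CPM in bARK(D110A) input to 1.89, 2.25, 2.24 and 2.16 CPM in bARK(D110A) IP, and from 7.24, 6.69, 5.86 and 7.00 CPM in bARK input to 2.81, 2.52, 2.11 and 2.63 CPM in bARK IP, with no overlap. Exons of Lama2, Lama3 and Lamc3 overlap those of other annotated genes on the opposite strand, and the strand setting of the counting is not given, so part of their reads is uncertain. All 10 endothelial markers were lower in IP too, at 145 to 172 CPM summed in bARK(D110A) input against 19.0 to 21.5 CPM in IP, and at 140 to 171 against 19.1 to 22.9 CPM in bARK. Their part in the values of Lama4 and Lamc3 was not tested.

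**Figure D2:**
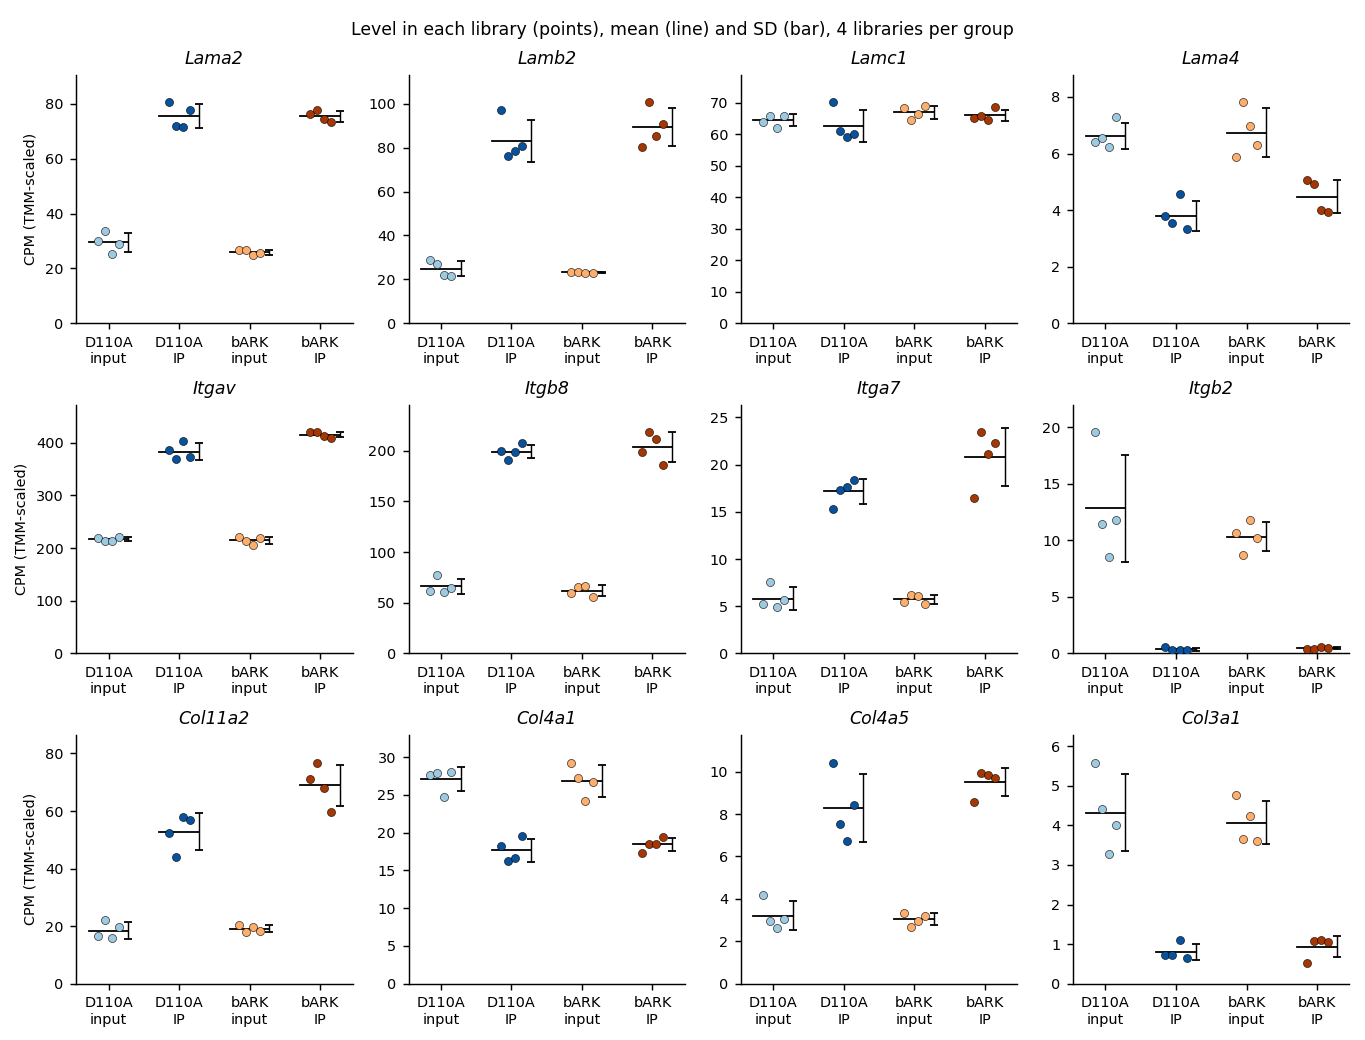
CPM in each library for 12 members, 4 libraries per group, with the mean as a line and the SD as a bar. Lama2, Lamb2, Itgav, Itgb8, Itga7, Col11a2 and Col4a5 are higher in all IP libraries than in any input library of their construct, Lama4, Itgb2, Col4a1 and Col3a1 are lower, and Lamc1 overlaps.

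Set against each other within a library, the chains moved apart. The pairs were picked with these results known, so the ratios describe and were not tested. The log2 of the Lamb2 to Lamb1 read-count ratio was -1.02, -0.90, -1.53 and -1.38 in bARK(D110A) input and 0.45, 0.31, 0.03 and 0.38 in bARK(D110A) IP. In bARK it was -1.34, -1.42, -1.35 and -1.30 in input and 0.36, 0.58, 0.34 and 0.66 in IP. Lamb1 had more reads than Lamb2 in all 8 input libraries, and Lamb2 had more in all 8 IP libraries.

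The Lama2 to Lama4 ratio was, on the log2 scale, 2.23, 2.37, 2.01 and 1.99 in bARK(D110A) input and 4.41, 4.35, 3.97 and 4.55 in IP, and 2.19, 1.76, 1.83 and 2.02 in bARK input and 3.91, 3.98, 4.22 and 4.22 in bARK IP. For Lamc3 to Lamc1 it was -3.17, -3.17, -3.20 and -3.52 in bARK(D110A) input and -5.21, -4.77, -4.72 and -4.80 in IP, against -3.24, -3.27, -3.50 and -3.30 in bARK input and -4.53, -4.71, -4.93 and -4.70 in bARK IP. These read ratios are not corrected for length, and only their change from input to IP is comparable between pairs.

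**Figure D3:**
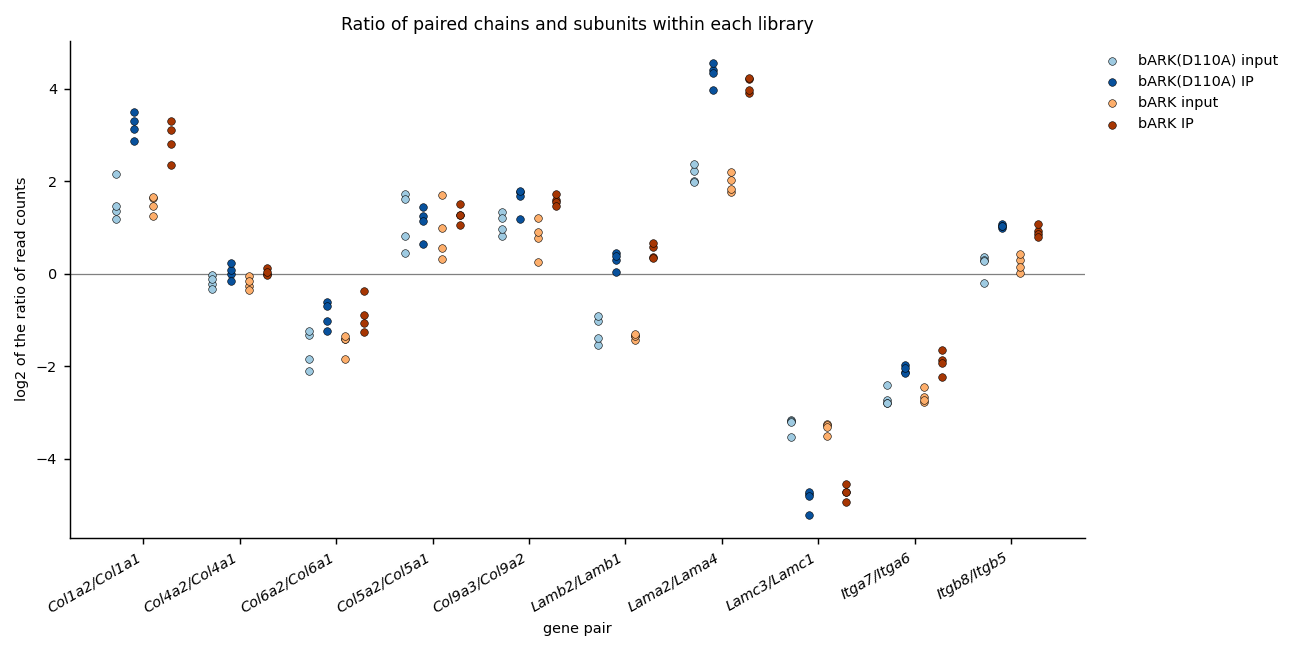
Log2 of the ratio of read counts of paired chains or subunits in each of the 16 libraries, coloured by group. Lamb2/Lamb1 lies below 0 in input and above 0 in IP, Lama2/Lama4 and Col1a2/Col1a1 are higher in IP, and Lamc3/Lamc1 is lower. Col4a2/Col4a1 lies between -0.34 and 0.23, with means of -0.16 in input and 0.04 in IP in bARK(D110A) and -0.20 and 0.04 in bARK.

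Integrin alpha genes were higher in IP for 5 of 17 and lower for 10 in bARK(D110A), and higher for 5 and lower for 9 in bARK. Integrin beta genes divided evenly, 3 higher and 3 lower of 8 tested under each construct, or 37.5% each way. This was close to the shares of all tested genes, 36.5% higher and 37.2% lower in bARK(D110A) and 37.6% and 38.1% in bARK. Among the genes that were higher, Itgav, the alpha subunit for RGD-bearing ligands such as vitronectin and latent TGF-β, had the highest level per length of all 82 members. Per kilobase of exon it averaged 30.8 ± 0.615 CPM (SD, n = 4) in bARK(D110A) input and 54.3 ± 2.22 in bARK(D110A) IP. Itgav was at 219.9, 213, 214 and 222 CPM in bARK(D110A) input, 386, 369.7, 404 and 373 CPM in bARK(D110A) IP, 221, 214, 206 and 219 CPM in bARK input and 419.7, 419.6, 413 and 409.6 CPM in bARK IP. IP and input did not overlap, at log2 fold changes of 0.82 ± 0.04 (adjusted p = 5.96e-12) and 0.95 ± 0.04 (adjusted p = 7.76e-13).

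Of its beta partners, Itgb8, Itgb5 and Itgb1 were higher as well. Itgb3, a partner at a lower level, went the other way, at -1.38 ± 0.26 and -1.48 ± 0.26, and Itgb6 stayed below the count filter. Itgb8, which with Itgav activates latent TGF-β, was at 62.0, 77.2, 60.5 and 64.4 CPM in bARK(D110A) input and 199, 191, 199 and 207 CPM in bARK(D110A) IP. In bARK it was at 59.6, 65.8, 66.7 and 56.0 CPM in input and 199, 218, 212 and 186 CPM in IP. Its log2 fold changes of 1.59 ± 0.08 (adjusted p = 6.47e-12) and 1.71 ± 0.08 (adjusted p = 2.18e-12) were the largest of the beta genes. Itgb5, a vitronectin receptor subunit, was at 0.74 ± 0.09 (adjusted p = 2.2e-06) and 1.02 ± 0.09 (adjusted p = 3.72e-08), and Itgb1, the common beta subunit of laminin and collagen receptors, at 0.55 ± 0.06 (adjusted p = 1.36e-07) and 0.70 ± 0.06 (adjusted p = 5.41e-09).

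Per kilobase of exon, Itgb5 averaged 28.6 ± 1.27 CPM, Itgb1 26.4 ± 1.68 CPM and Itgb8 23.7 ± 0.781 CPM in bARK(D110A) IP (SD, n = 4). Itgb5 and Itgb1 differ by less than the sum of their SDs, and Itgb1 and Itgb8 by slightly more. In bARK(D110A) input the same genes averaged 17.2 ± 2.89, 18.1 ± 1.46 and 7.86 ± 0.907 CPM per kilobase, so Itgb8 lay well below the other two there. In reads, the log2 ratio of Itgb8 to Itgb5 was -0.21, 0.37, 0.30 and 0.28 in bARK(D110A) input and 1.00, 1.07, 1.03 and 1.04 in bARK(D110A) IP, and 0.01, 0.31, 0.43 and 0.15 in bARK input and 0.93, 0.87, 1.08 and 0.79 in bARK IP.

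The laminin-binding alpha subunits Itga3, Itga6 and Itga7, all partners of Itgb1, were higher in IP under both constructs. Itga6 was at 34.4, 39.5, 33.9 and 39.1 CPM in bARK(D110A) input and 66.5, 68.1, 77.8 and 75.0 CPM in IP, and at 36.9, 34.2, 38.5 and 34.5 CPM in bARK input and 77.3, 85.1, 80.0 and 69.9 CPM in bARK IP. Its groups did not overlap, with log2 fold changes of 0.97 ± 0.07 and 1.12 ± 0.07 (adjusted p = 1.89e-09 and 2.52e-10). Itga7, known as the alpha subunit of muscle laminin receptors, was at 5.21, 7.53, 4.90 and 5.63 CPM in bARK(D110A) input and 15.3, 17.3, 17.7 and 18.4 CPM in IP, and at 5.41, 6.24, 6.08 and 5.21 CPM in bARK input and 16.4, 23.4, 21.2 and 22.3 CPM in bARK IP. Its log2 fold changes were 1.56 ± 0.13 and 1.86 ± 0.13 (adjusted p = 8.15e-09 and 7.39e-10), and its exons overlap Mettl7b on the opposite strand.

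Itga3 was higher by 0.89 ± 0.12 and 0.94 ± 0.12 on the log2 scale (adjusted p = 5.29e-06 and 2.81e-06). Per kilobase in bARK(D110A) IP, Itga6 averaged 16.5 ± 1.25, Itga3 4.59 ± 0.489 and Itga7 4.14 ± 0.321 CPM beside 26.4 ± 1.68 CPM for Itgb1. Itga3 and Itga7 lay within 1 SD of each other there.

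Of the 4 collagen-binding alpha subunits, Itga1, Itga10 and Itga11 were lower and Itga2 was higher. Itga1, a collagen receptor subunit, was lower, at -0.83 ± 0.10 and -0.73 ± 0.10 (adjusted p = 7.58e-07 and 3.5e-06), and Itga5, the main fibronectin receptor subunit, at -0.85 ± 0.10 and -0.80 ± 0.09 (adjusted p = 3.8e-07 and 6.62e-07). The collagen-binding subunits Itga10, at -1.22 ± 0.28 and -1.66 ± 0.29 (adjusted p = 0.000984 and 6.27e-05), and Itga11, at -0.55 ± 0.13 and -0.53 ± 0.13 (adjusted p = 0.000966 and 0.00141), were lower too. Itga2, the remaining collagen receptor subunit, was higher by 1.79 ± 0.49 and 2.06 ± 0.54 (adjusted p = 0.00341 and 0.00226), at 0.0751 to 1.06 CPM over the libraries and 3 to 9 reads in each input library, and it passed the count filter only through IP, where it was high. Itga1, Itga2, Itga5, Itga10 and Itga11 were picked after their values were seen.

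Itga9, a receptor subunit for tenascin and other ligands, was at 68.8, 65.8, 60.7 and 57.8 CPM in bARK(D110A) input and 29.0, 30.5, 26.4 and 20.7 CPM in IP, and at 89.7, 59.7, 64.1 and 64.9 CPM in bARK input and 35.0, 31.6, 25.5 and 25.5 CPM in bARK IP. Its log2 fold changes were -1.25 ± 0.15 and -1.24 ± 0.15 (adjusted p = 1.82e-06 and 1.71e-06). Per kilobase, Itga9 and Itga6 were close in bARK(D110A) input, at 8.86 ± 0.697 and 8.42 ± 0.684 CPM, and apart in bARK(D110A) IP, at 3.73 ± 0.604 and 16.5 ± 1.25 CPM. Itga4, a subunit that binds VCAM and fibronectin, was lower, at -1.85 ± 0.22 and -1.76 ± 0.23 (adjusted p = 1.23e-06 and 2.25e-06), and its exons overlap Cerkl on the opposite strand. Itgb3, the beta subunit of platelets and of a vitronectin receptor, was lower, at -1.38 ± 0.26 and -1.48 ± 0.26 (adjusted p = 0.000116 and 6.23e-05).

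Of the leukocyte integrins, several of which microglia carry in brain, Itgb2, Itgax and Itgal had the lowest log2 fold changes of the integrin genes tested under both constructs. Itgb2, their common beta subunit, was at 19.6, 11.5, 8.52 and 11.8 CPM in bARK(D110A) input and 0.591, 0.301, 0.283 and 0.302 CPM in bARK(D110A) IP. In bARK it was at 10.7, 8.67, 11.8 and 10.2 CPM in input and 0.415, 0.420, 0.611 and 0.508 CPM in IP. Each IP library was far under each input library, and the log2 fold changes were -5.09 ± 0.28 (adjusted p = 6.93e-11) and -4.40 ± 0.27 (adjusted p = 2.52e-10). Its alpha partners Itgal, at -2.83 ± 0.43 and -2.69 ± 0.45, and Itgax, at -4.43 ± 0.59 and -4.16 ± 0.62, were lower as well, each past the threshold under both constructs. Of the other leukocyte subunits, Itgae was lower at -2.79 ± 0.59 and -1.73 ± 0.62 (adjusted p = 0.000445 and 0.0184). Itgb7 at -1.41 ± 0.40 and -0.87 ± 0.40 and Itgad at -1.22 ± 0.52 and -0.89 ± 0.52 passed in bARK(D110A) and not in bARK (adjusted p = 0.00405 and 0.0574 for Itgb7, 0.0425 and 0.128 for Itgad). Itgax, Itgae and Itgad passed the count filter only through input, where they were high, so their calls and ranks carry that limit.

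All 10 microglial markers were lower in IP, with a summed level of 598 to 1044 CPM in bARK(D110A) input, 19.0 to 25.8 CPM in bARK(D110A) IP, 626 to 783 CPM in bARK input and 19.7 to 29.9 CPM in bARK IP. Library 1 of bARK(D110A) input, with the highest of these sums, also had the highest input level of Itgb2, Itgal at 5.08, 2.39, 1.04 and 1.90 CPM in bARK(D110A) input libraries 1 to 4 and Itgax at 7.62, 3.70, 1.01 and 2.90 CPM. The part of the microglial markers in these values was not tested.

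Some members followed single libraries. Itgb4, which pairs with Itga6 and is known from hemidesmosomes and myelinating cells, was at 31.1, 22.5, 10.4 and 20.1 CPM in bARK(D110A) IP libraries 1 to 4 and 17.9, 23.3, 13.9 and 16.5 CPM in the matching input, and at 23.4, 13.6, 16.3 and 19.2 CPM in bARK IP and 14.5, 16, 13.9 and 13.1 CPM in bARK input. IP and input overlapped, and the log2 fold changes of 0.23 ± 0.27 and 0.34 ± 0.27 did not pass (adjusted p = 0.443 and 0.272). Without bARK(D110A) IP library 1 the value in bARK(D110A) was -0.00. Mbp, a myelin gene, was at 3314, 2386, 1151 and 1854 CPM in the same bARK(D110A) IP libraries and 2452, 1498, 1572 and 1953 CPM in bARK IP.

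The highest and the lowest bARK(D110A) IP library, 1 and 3, were the same for Itgb4 and Mbp. Over 7 oligodendrocyte markers, the sum ranged from 3338 to 5793 CPM in bARK(D110A) input and from 2174 to 6005 CPM in bARK(D110A) IP, and from 3493 to 3888 CPM in bARK input and 2793 to 4409 CPM in bARK IP. Of these 7 markers, 0 were higher and 1 lower in IP in bARK(D110A), and 1 was higher and 1 lower in bARK. Their part in the level of Itgb4 was not tested.

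**Figure D4:**
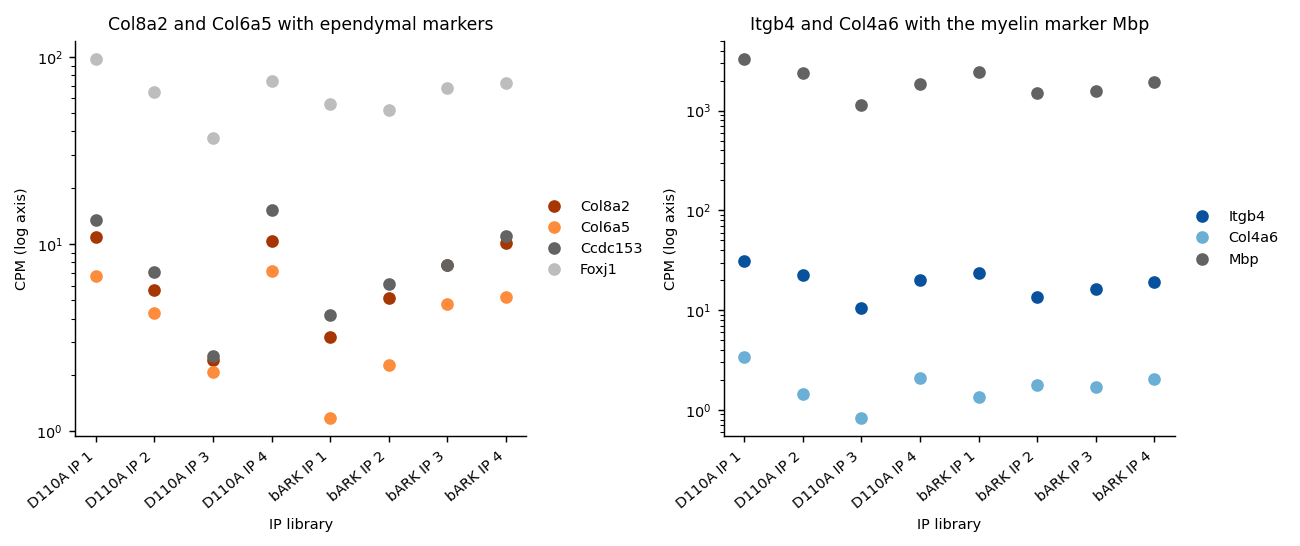
CPM on a log axis in each of the 8 IP libraries, for Col8a2 and Col6a5 with the ependymal markers Ccdc153 and Foxj1 on the left, and for Itgb4 and Col4a6 with the myelin marker Mbp on the right. In bARK(D110A), IP library 3 is the lowest for all 7 genes, with Itgb4 at 10.4 CPM and Col8a2 at 2.40 CPM there.

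Col8a2, a short-chain network collagen best known from cornea, and Col6a5, a chain of the type VI family, had this kind of spread too. Col8a2 was at 3.49, 1.31, 1.27 and 2.38 CPM in bARK(D110A) input and 10.9, 5.67, 2.40 and 10.4 CPM in bARK(D110A) IP, and at 1.07, 1.30, 1.05 and 1.82 CPM in bARK input and 3.20, 5.15, 7.71 and 10.1 CPM in bARK IP. Input and IP overlapped in bARK(D110A) and not in bARK, and the log2 fold changes were 1.81 ± 0.49 (adjusted p = 0.00425) and 2.31 ± 0.51 (adjusted p = 0.000983). Col6a5 was at 2.38, 1.28, 1.40 and 2.61 CPM in bARK(D110A) input and 6.76, 4.28, 2.07 and 7.20 CPM in bARK(D110A) IP, and at 0.702, 1.75, 0.826 and 1.39 CPM in bARK input and 1.18, 2.26, 4.81 and 5.24 CPM in bARK IP. Its input and IP libraries overlapped under both constructs, with log2 fold changes of 1.42 ± 0.48 (adjusted p = 0.0166) and 1.54 ± 0.51 (adjusted p = 0.0137). Without mice 1 and 3 of bARK(D110A) the first became 1.61 with an adjusted p of 0.0607, no longer past the threshold.

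Ccdc153, a gene of motile cilia that marks ependymal cells, was at 13.5, 7.11, 2.53 and 15.2 CPM in bARK(D110A) IP libraries 1 to 4 and at 4.17, 6.13, 7.74 and 11.0 CPM in bARK IP, and Foxj1, the regulator of motile cilia, at 97.9, 65.3, 36.9 and 74.7 CPM in bARK(D110A) IP and 56.3, 52.3, 68.6 and 72.3 CPM in bARK IP. In bARK(D110A) IP the libraries 1 and 4 were the higher pair and library 3 the lowest for Col8a2, Col6a5 and both markers. Of the 8 ependymal and choroid plexus markers, 6 were higher in IP and 1 lower in bARK(D110A), and 6 were higher and 2 lower in bARK. The markers summed to 25.7 to 49.2 CPM in bARK(D110A) input, 58.1 to 158 CPM in bARK(D110A) IP, 24.7 to 26.4 CPM in bARK input and 81.9 to 123 CPM in bARK IP. The part of these markers in the levels of Col8a2 and Col6a5 was not tested.

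Collagens as a class were higher in IP for 12 of 42 and lower for 20 in bARK(D110A), and higher for 13 and lower for 18 in bARK. These are 28.6% and 47.6% in bARK(D110A) and 31.0% and 42.9% in bARK. The shares of all tested genes were 36.5% and 37.2% in bARK(D110A) and 37.6% and 38.1% in bARK. The type IV chains, the network of basement membranes, come as 3 pairs of genes that face each other head to head, which puts both starts of a pair close together. Col4a1 and Col4a2 on chromosome 8 have starts 84 bases apart, and Col4a5 and Col4a6 on chromosome X have 1275 bases between their starts, by RefSeq's gene spans on GRCm38.p6, the assembly of mm10. For these 2 pairs, promoter windows from 250 bases before to 50 bases after a start are printed, because both genes of the first pair were lower in IP while of the second only Col4a5 passed the test. The windows' starts lie 63 bases inside the span of Col4a1, 49 inside that of Col4a5, 19 inside that of Col4a6 and 0 inside that of Col4a2, so between windows the starts are 21 and 1343 bases apart. They are RefSeq sequences of GRCm38.p6, read 5′ to 3′ on the gene's own strand, with matches on either strand to GGGCGG (GC box), CCAAT and TATAAA in capitals.
Col4a1, chr8:11312777-11313076, minus strand: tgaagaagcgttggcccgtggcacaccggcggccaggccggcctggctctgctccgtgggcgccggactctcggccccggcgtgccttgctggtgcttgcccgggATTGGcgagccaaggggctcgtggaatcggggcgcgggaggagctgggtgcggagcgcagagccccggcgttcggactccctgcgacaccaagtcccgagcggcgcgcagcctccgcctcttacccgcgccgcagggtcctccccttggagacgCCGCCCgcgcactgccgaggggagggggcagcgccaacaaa
Col4a2, chr8:11312555-11312854, plus strand: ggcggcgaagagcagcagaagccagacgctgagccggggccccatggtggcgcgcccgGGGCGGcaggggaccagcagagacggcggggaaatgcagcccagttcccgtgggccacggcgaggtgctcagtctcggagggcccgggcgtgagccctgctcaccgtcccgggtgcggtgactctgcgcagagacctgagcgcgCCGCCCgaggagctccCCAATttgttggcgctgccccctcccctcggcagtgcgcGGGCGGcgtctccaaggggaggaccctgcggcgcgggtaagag
Col4a5, chrX:141475169-141475468, plus strand: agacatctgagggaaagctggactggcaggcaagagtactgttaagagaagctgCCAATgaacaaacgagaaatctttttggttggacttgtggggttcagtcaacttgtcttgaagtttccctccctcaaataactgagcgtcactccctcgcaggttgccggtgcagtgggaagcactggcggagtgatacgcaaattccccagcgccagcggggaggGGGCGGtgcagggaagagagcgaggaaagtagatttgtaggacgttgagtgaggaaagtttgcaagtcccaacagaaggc
Col4a6, chrX:141474027-141474326, minus strand: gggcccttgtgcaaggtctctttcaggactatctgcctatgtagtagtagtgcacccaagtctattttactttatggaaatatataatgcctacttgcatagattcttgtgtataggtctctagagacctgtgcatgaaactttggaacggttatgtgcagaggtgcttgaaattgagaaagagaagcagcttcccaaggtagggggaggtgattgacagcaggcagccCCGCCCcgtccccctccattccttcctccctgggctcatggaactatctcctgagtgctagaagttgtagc

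The windows of Col4a1 and Col4a2 share 78 bases, and those of Col4a5 and Col4a6 share 0. The Col4a2 window held 3 GC boxes and 1 CCAAT match, the Col4a1 and Col4a5 windows 1 of each, and the Col4a6 window 1 GC box and 0 CCAAT matches. The GC box of the Col4a1 window lies in the 78 shared bases and is the same site as 1 of the 3 of Col4a2. None of the 4 windows held TATAAA. Of 27025 RefSeq promoter windows of this length, 35.9% held GGGCGG, 37.9% CCAAT and 14.2% TATAAA on either strand. Of the 59 members with a window in the table, 33 held GGGCGG, 16 CCAAT and 5 TATAAA.

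Col4a1 and Col4a2, the chains of nearly all basement membranes, were lower in IP. Col4a1 was at 27.6, 27.9, 24.8 and 28.1 CPM in bARK(D110A) input and 18.3, 16.2, 16.7 and 19.6 CPM in bARK(D110A) IP, and at 29.3, 27.2, 24.2 and 26.7 CPM in bARK input and 17.3, 18.5, 18.5 and 19.5 CPM in bARK IP. Col4a2 was at 23.8, 22.3, 24.4 and 26.2 CPM in bARK(D110A) input and 18.3, 17.1, 19.5 and 17.7 CPM in bARK(D110A) IP and at 24.6, 21.4, 23.6 and 24.1 CPM in bARK input and 17.3, 20.2, 18.2 and 20.1 CPM in bARK IP. In neither gene did IP and input overlap, with log2 fold changes of -0.61 ± 0.07 and -0.54 ± 0.07 for Col4a1 (adjusted p = 5.26e-07 and 2.3e-06) and -0.41 ± 0.07 and -0.31 ± 0.07 for Col4a2 (adjusted p = 3.36e-05 and 0.000576). The exons of the genes overlap each other at their starts, so some of their reads could be counted for either. All 10 endothelial markers fell more than Col4a1 on the log2 scale, at -1.05 to -4.37 in bARK(D110A) and -1.05 to -4.21 in bARK.

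Col4a5 and Col4a6, chains of kidney and smooth muscle basement membranes, both had positive values, and only Col4a5 passed in the main test. Col4a5 was at 4.19, 2.96, 2.64 and 3.06 CPM in bARK(D110A) input and 10.4, 7.55, 6.71 and 8.41 CPM in bARK(D110A) IP, and at 3.33, 2.67, 2.95 and 3.18 CPM in bARK input and 8.55, 9.93, 9.85 and 9.68 CPM in bARK IP. Every IP library was above every input library, at log2 fold changes of 1.37 ± 0.15 and 1.64 ± 0.15 (adjusted p = 2.04e-07 and 1.81e-08). Col4a6 was at 1.37, 1.25, 1.09 and 1.13 CPM in bARK(D110A) input and 3.38, 1.46, 0.828 and 2.07 CPM in bARK(D110A) IP and at 1.40, 1.47, 1.03 and 1.20 CPM in bARK input and 1.36, 1.80, 1.71 and 2.03 CPM in bARK IP, and its values of 0.68 ± 0.30 and 0.44 ± 0.31 did not pass (adjusted p = 0.0517 and 0.2). Without mice 1 and 3 of bARK(D110A), Col4a6 in bARK was at 0.45 and passed (adjusted p = 0.0412). Col4a3 and Col4a4 on chromosome 1, the remaining pair and also known from kidney, have starts 113 bases apart and had 1 to 14 and 4 to 27 reads per library. Col4a3 was at -0.53 ± 0.57 and -0.94 ± 0.60 and did not pass (adjusted p = 0.411 and 0.169), and Col4a4 at 0.53 ± 0.30 and 0.82 ± 0.31 passed in bARK (adjusted p = 0.115 and 0.0239). Col4a4 passed the count filter only through IP, where it was high. The difference between the genes of a pair was not tested.

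Fibrillar collagens were lower in IP for 7 of 11 and higher for 3 in bARK(D110A), and lower for 6 and higher for 3 in bARK. Of all tested genes, 37.2% were lower and 36.5% higher in bARK(D110A), and 38.1% and 37.6% in bARK. Col1a1 and Col3a1, chains of fibrils in meninges and vessel walls, were among the lowest. Col1a1 was at 2.51, 4.15, 3.12 and 4.15 CPM in bARK(D110A) input and 1.06, 0.764, 0.719 and 0.712 CPM in IP, and at 4.12, 2.98, 3.53 and 2.86 CPM in bARK input and 0.968, 0.909, 0.993 and 0.729 CPM in bARK IP. Col3a1 was at 5.59, 4.41, 3.27 and 4.02 CPM in bARK(D110A) input and 0.733, 0.718, 1.11 and 0.647 CPM in bARK(D110A) IP, and at 4.76, 3.67, 4.23 and 3.60 CPM in bARK input and 0.530, 1.07, 1.09 and 1.06 CPM in bARK IP. The input and IP groups of both genes lay apart, and the log2 fold changes were -2.09 ± 0.20 and -1.91 ± 0.20 for Col1a1 (adjusted p = 4.98e-08 and 1.38e-07) and -2.42 ± 0.23 and -2.11 ± 0.23 for Col3a1 (adjusted p = 4.91e-08 and 2.19e-07).

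Col1a2, the partner chain of Col1a1 in type I collagen, was lower as well, at -0.42 ± 0.12 and -0.50 ± 0.12 (adjusted p = 0.00433 and 0.00132). Without mice 1 and 3 of bARK(D110A) the first was -0.31 and no longer passed (adjusted p = 0.106). The log2 ratio of Col1a2 to Col1a1 reads was 2.16, 1.35, 1.48 and 1.18 in bARK(D110A) input and 2.86, 3.31, 3.14 and 3.51 in IP, and 1.25, 1.65, 1.47 and 1.66 in bARK input and 2.36, 3.10, 2.80 and 3.30 in bARK IP. Of the 10 fibroblast markers, 8 were lower and 1, Fbln1, was higher in IP under both constructs, and the sum was 36.2 to 41.4 CPM in bARK(D110A) input, 25.2 to 28.9 CPM in bARK(D110A) IP, 35.8 to 43.1 CPM in bARK input and 25.3 to 32.0 CPM in bARK IP. Fbln1 made up much of that sum in IP. It averaged 4.205 CPM in input and 17.49 CPM in IP in bARK(D110A), and 4.101 and 20.02 CPM in bARK. The sum therefore fell less than most of the fibroblast markers, whose median log2 fold change was -3.553 in bARK(D110A) and -3.302 in bARK. Of the 10 mural markers, 6 were lower under both constructs, with 2 higher in bARK(D110A) and 3 in bARK. The part of either list in the fibrillar values was not tested.

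Col11a2, Col5a1 and Col5a2 were the fibrillar genes higher in IP under both constructs. Col11a2, a chain of cartilage fibrils, was at 16.4, 22.0, 15.7 and 19.6 CPM in bARK(D110A) input and 52.5, 44.0, 58.1 and 56.7 CPM in IP, and at 20.5, 17.8, 19.6 and 18.5 CPM in bARK input and 71.0, 76.8, 68.1 and 59.6 CPM in bARK IP. Its log2 fold changes were 1.52 ± 0.11 and 1.85 ± 0.11 (adjusted p = 2.54e-09 and 1.91e-10), with no overlap of input and IP. Per kilobase of exon Col11a2 averaged 8.38 ± 1.00 CPM in bARK(D110A) IP and 10.9 ± 1.14 CPM in bARK IP (SD, n = 4). Col5a2, which joins type I fibrils, was at 1.23 ± 0.20 and 1.63 ± 0.21 (adjusted p = 3.66e-05 and 1.5e-06).

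Among collagens that sit on fibrils or in membranes, Col16a1 was higher by 1.55 ± 0.11 and 1.85 ± 0.11 (adjusted p = 5.95e-10 and 5.59e-11). It stood at 5.59, 5.17, 5.33 and 5.63 CPM in bARK(D110A) input and 16.3, 14.0, 15.0 and 18.5 CPM in IP, and at 4.82, 4.56, 5.13 and 6.01 CPM in bARK input and 15.6, 19.8, 20.2 and 18.4 CPM in bARK IP, again without overlap. Col25a1, a transmembrane collagen made by neurons and found in amyloid plaques, had the highest level per length of the collagens in bARK(D110A) IP, at 16.3 ± 1.56 CPM per kilobase (SD, n = 4) against 9.03 ± 1.07 in input. Its log2 fold changes were 0.85 ± 0.09 and 0.84 ± 0.09 (adjusted p = 1.13e-07 and 1.04e-07). Of 9 neuronal markers in the table, 3 were higher and 4 lower in IP in bARK(D110A), and 2 were higher and 5 lower in bARK, with sums of 5455 to 5802 and 4395 to 5300 CPM in bARK(D110A) input and IP and of 5853 to 6099 and 4413 to 4714 CPM in bARK. Their part in the level of Col25a1 was not tested.

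Col15a1, a vessel collagen that carries an endostatin-like domain, had the lowest value of the collagens over 1 CPM on average. It was at 4.48, 4.43, 3.68 and 4.50 CPM in bARK(D110A) input and 0.326, 0.394, 0.327 and 0.561 CPM in IP, and at 5.25, 4.39, 3.26 and 3.74 CPM in bARK input and 0.668, 1.05, 0.458 and 0.486 CPM in bARK IP, with log2 fold changes of -3.40 ± 0.25 and -2.63 ± 0.24 (adjusted p = 1.8e-09 and 2.14e-08). Its IP libraries lay under every input library. Col6a4, a type VI chain, was lower, at -1.69 ± 0.40 and -1.85 ± 0.41 (adjusted p = 0.00176 and 0.000894) with input values from 4.60 to 13.3 CPM in bARK(D110A). Col25a1, Col4a5, Col4a6, Col1a2 and Col5a2 were picked after their values were seen.

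Genes that lie side by side on a chromosome did not always move alike. Of 10 pairs of members less than 50 kb apart, Col3a1 and Col5a2 on chromosome 1, 24.6 kb apart, Col6a4 and Col6a5 on chromosome 9, 27.9 kb apart, and Itga1 and Itga2 on chromosome 13, 26.0 kb apart, each had one gene lower and the other higher in IP under both constructs. The calls of Itga2 and Col6a5 carry limits given above. Itga2 passed the count filter only through IP, where it was high. Input and IP libraries of Col6a5 overlapped under both constructs, and its call in bARK(D110A) ended when mice of that construct were left out. Col4a1 with Col4a2 was the pair lower in both genes under both constructs. The other pairs had at least one gene that did not pass under a construct or was not tested. The pairs were picked by distance, and no test was made of them.

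Genes that build, bind or cut the matrix were read beside the members, from 6 lists. No list was tested as a set. For all tested genes, 36.5% were higher and 37.2% lower in bARK(D110A), and 37.6% and 38.1% in bARK, with a median log2 fold change of -0.01 in each. Of 22 matrix partners of laminin and collagen, 8 were higher and 8 lower under each construct, with median log2 fold changes of -0.17 and -0.03. Fbln1, a fibulin of basement membranes, was higher by 2.06 ± 0.11 and 2.29 ± 0.11, and Ntn4, a netrin that binds laminin, by 1.80 ± 0.09 and 1.88 ± 0.09. Dcn, a proteoglycan on collagen fibrils, went from 8.31 ± 0.363 to 0.222 ± 0.0850 CPM (SD, n = 4) in bARK(D110A) and Lum, a related one, from 0.978 ± 0.260 to 0.0112 ± 0.0129 CPM. Dcn, Lum and Fbln1 are fibroblast markers in the lists used here as well, and the first 2 moved with the other 6 lower markers of that list.

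Of 27 genes for collagen processing tested, 15 were higher and 6 lower in bARK(D110A), and 16 and 6 in bARK, with medians of 0.38 and 0.36. Loxl1, a crosslinking oxidase, was at 2.04 ± 0.15 and 2.45 ± 0.15 and Colgalt2, a collagen galactosyltransferase, at 1.98 ± 0.12 and 2.11 ± 0.12. Lox, the founding oxidase of that family, was lower, from 0.649 ± 0.180 to 0.0312 ± 0.0350 CPM (SD, n = 4) in bARK(D110A), and Pcolce, which aids procollagen cleavage, was at -1.99 ± 0.20 and -1.75 ± 0.20.

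Of 16 genes for matrix receptors other than integrins and for proteins of their complexes, 11 were higher and 4 lower under each construct, with medians of 0.78 and 0.83. Sgca, a sarcoglycan, was at 2.51 ± 0.27 and 2.56 ± 0.26 and Sntb1, a syntrophin of the same complex, at 1.81 ± 0.12 and 1.89 ± 0.12. Lair1, an inhibitory collagen receptor of leukocytes, was at -1.58 ± 0.13 and -1.33 ± 0.13, and Rpsa, a ribosomal protein also known as a laminin receptor, at -1.26 ± 0.06 and -1.17 ± 0.06. Rpsa shares sequence with processed pseudogenes, so its count is uncertain.

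Of 29 integrin adaptors and signalling genes, 15 were higher and 7 lower in bARK(D110A), and 16 and 6 in bARK, with medians of 0.27 and 0.38. Kank2, which links talin to the cell cortex, was at 1.65 ± 0.10 and 1.90 ± 0.10, and Parva, a parvin that binds integrin-linked kinase, at 1.64 ± 0.10 and 1.85 ± 0.10. Fermt3, the kindlin of blood cells, and Parvg, the parvin of blood cells, were lower, at -4.77 ± 0.29 and -4.00 ± 0.27 and at -4.47 ± 0.22 and -3.88 ± 0.22, beside the microglial sums given above.

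Of 28 other integrin ligands, 13 were higher and 9 lower in bARK(D110A), and 13 and 8 in bARK, with medians of 0.54 and 0.54. Vcam1, a ligand of Itga4 pairs, was at 2.30 ± 0.17 and 2.46 ± 0.17 and Thbs4, a thrombospondin, at 2.24 ± 0.37 and 2.70 ± 0.38, while Vwf, made by endothelium, was at -3.06 ± 0.17 and -3.07 ± 0.17 and Tgfb1 at -2.72 ± 0.23 and -2.59 ± 0.24. Of 21 matrix proteases and their inhibitors, 11 were higher and 6 lower in bARK(D110A), and 12 and 6 in bARK, at medians of 0.46 and 0.66, with Timp1 at 2.33 ± 0.40 and 3.34 ± 0.41, Timp3 at 2.11 ± 0.08 and 2.25 ± 0.08, Reck at -1.08 ± 0.09 and -0.95 ± 0.09 and Mmp17 at -0.94 ± 0.09 and -1.15 ± 0.09. All genes named in these lists passed the threshold under both constructs. Dcn, Lum and Lox averaged under the filter's level of 0.252 CPM in IP under both constructs and did not enter the test of the IP libraries alone. They were tested against input only through the input libraries, where they were high, so their calls carry that limit.

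Whether bARK altered these genes against bARK(D110A) was tested directly. In the 8 IP libraries, edgeR called 0 of 70 members tested, against 0% of 15006 genes, and 7 members had an unadjusted p under 0.05, beside 1287 of all genes (8.58%). In the 8 input libraries it called 0 of 75 members, against 0% of 15361 genes, with 2 members at an unadjusted p under 0.05, beside 904 of all genes (5.89%). For the difference in IP enrichment between the constructs it called 0 of 78 members, against 0% of 15850 genes, with 5 at an unadjusted p under 0.05, beside 951 of all genes (6.00%). DESeq2 called 37 genes higher and 8 lower in IP, which is 0.32% and 0.0693% of 11548 genes with an adjusted p, and none in input or in the difference of enrichment.

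The IP members with the smallest p were Col11a2, Lama3 and Itgav. Col11a2 was at 44.0 to 58.1 CPM in bARK(D110A) IP and 59.6 to 76.8 CPM in bARK IP, and all 4 bARK libraries lay above all 4 bARK(D110A) libraries. Its log2 fold change of 0.37 ± 0.09 had an adjusted p of 0.468 in edgeR and 0.0491 in DESeq2, so it passed in DESeq2 alone, the 1 member called among 34 to which DESeq2 gave an adjusted p. The input values of Col11a2, 15.7 to 22.0 CPM in bARK(D110A) and 17.8 to 20.5 CPM in bARK, overlapped, at 0.05 ± 0.11. All 10 astrocyte markers were also at positive values in IP in this contrast, from 0.06 to 0.24 on the log2 scale with 0 called by edgeR, and their part in the value of Col11a2 was not tested.

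Lama3 was at 14.5, 12.4, 16.9 and 15.6 CPM in bARK(D110A) IP and 18.6, 18.3, 18.6 and 16.4 CPM in bARK IP, which overlap, at 0.26 ± 0.08 (adjusted p = 0.486). Itgav was at 370 to 404 CPM in bARK(D110A) IP and 410 to 420 CPM in bARK IP, without overlap, at 0.11 ± 0.04 (adjusted p = 0.493). The standard error of the log2 fold change of Itgav was small, while low genes such as Itgbl1, at -0.71 ± 0.29 (adjusted p = 0.566), were measured with wide error.

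In input, the smallest p belonged to Lama2 at -0.19 ± 0.08 (adjusted p = 0.774), Itgb4 at -0.32 ± 0.14 (adjusted p = 0.774) and Col6a5 at -0.72 ± 0.33 (adjusted p = 0.774). For the difference in enrichment they were Itgav at 0.13 ± 0.05 (adjusted p = 0.825), Col9a3, a chain of cartilage type IX collagen, at 0.34 ± 0.15 (adjusted p = 0.825) and Col15a1 at 0.77 ± 0.34 (adjusted p = 0.825). Of the other matrix and adhesion genes, edgeR called 0 in any of these 3 comparisons. DESeq2 called 3 in IP, namely Vcl, which links integrins to actin, at 0.28 (adjusted p = 0.00883), Fn1, the fibronectin gene, at 0.53 (adjusted p = 0.0171), and Ltbp1, which binds latent TGF-β to the matrix, at 0.39 (adjusted p = 0.0490).

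**Figure D5:**
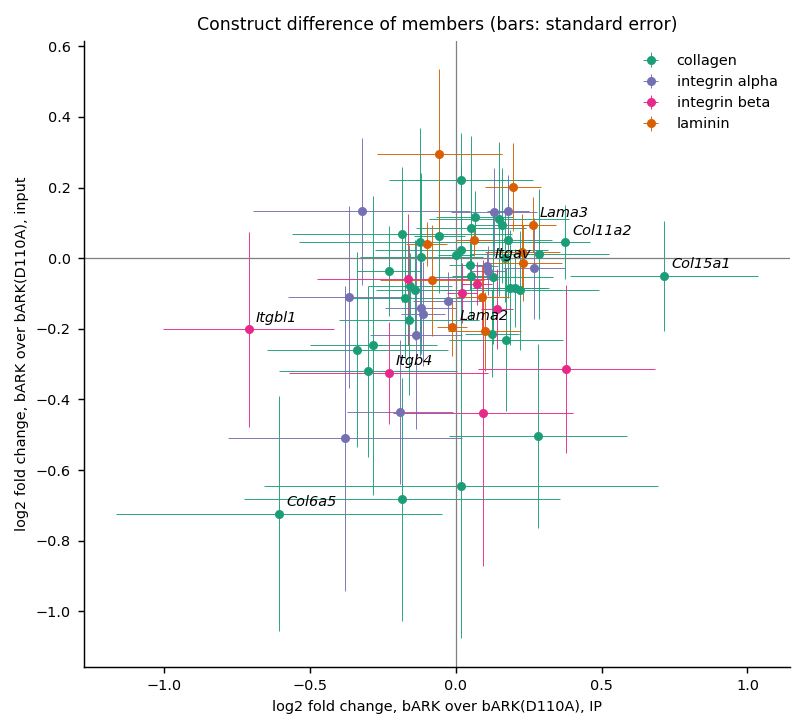
Log2 fold change of bARK over bARK(D110A) in IP (horizontal) and in input (vertical) for the members tested in both, with standard errors as bars and colours for the class. Points lie around 0 on both axes, from -0.71 for Itgbl1 to 0.71 for Col15a1 in IP, and none passed the threshold in edgeR.

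The members that could not be judged were few. Col10a1, Col6a6, Itgb2l and Itgb6 stayed below the filter, with 0 to 10 reads per library. A further 10 members passed with fewer than 4 of the 8 IP libraries at the filter's level of 0.252 CPM, namely Col13a1, Col24a1, Col28a1, Col4a3, Col7a1, Col9a1, Itgad, Itgae, Itgax and Itgbl1. Another 2, Col4a4 and Itga2, passed with fewer than 4 of the 8 input libraries at that level. Those 12 could pass only through the kind of library in which they were high, so the counts of members called carry that limit.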

How the data were processed

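RNA-seq of striatal input and astrocyte IP RNA was read from a table of whole-number counts of reads per gene and library that the authors deposited. Libraries were paired-end, made from 100 ng of RNA using a Nugen Ovation kit, with mRNA enrichment, per the labels' protocols. bcl2fastq 2.17, STAR, HTSeq, limma and build mm10 are named per the submitters' processing notes. No source used here gives other versions, the annotation or the strand setting. Genes with exons overlapping another gene (21 of the 78 members tested, by GENCODE M21) are therefore uncertain. Besides those flagged above, they include Col15a1, Col6a4, Col5a1, Col9a3 and Itgb4, with overlaps on the opposite strand. Col3a1, Col7a1, Itga1, Itga10 and Itgad overlap another gene on the same strand and are uncertain whatever the strand setting.

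Counts were tested with edgeR 4.0.16 in R 4.3.3, by the quasi-likelihood F test (robust fit, TMM factors), filterByExpr at a minimum count of 10 and Benjamini-Hochberg adjustment over all genes tested, at a threshold of 0.05. IP against input, within each construct and as an interaction, was fitted on 16 libraries, and bARK against bARK(D110A) on 8 IP and on 8 input libraries. Standard errors were the log2 fold change divided by the square root of F. CPM used TMM-scaled totals, and lengths were the union of GENCODE exons. The 2 symbols on more than 1 line were not members. On counts simulated for IP against input in bARK(D110A), it recovered 65 of 100 genes changed 1.5-fold and 87 of 98 changed 2-fold and called 8 of 15461 unchanged. For bARK against bARK(D110A) in IP, it recovered 66 of 100 and 77 of 99 and called 8 of 14724. Only these few genes were changed in the simulations, and no pairing of mice was simulated. In the data of IP against input in bARK(D110A), 36.5% of genes were called higher and 37.2% lower, so the rates simulated for it describe a setting unlike that comparison. One oligodendrocyte marker is not reported here and was left out of its list. Alternatives were DESeq2 1.42.0, library size as the only scaling, no filter, a replicate block, each library left out and mice 1 and 3 of bARK(D110A) left out, the last chosen after seeing the data.

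Deviations from the group mean of input and IP libraries of the same number correlated at 0.239 to 0.561 in bARK(D110A) and 0.166 to 0.315 in bARK, and each library correlated best with its own number, so the numbers were taken to pair input and IP of a mouse. Across constructs they share only a number.

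The members, gene lists, tests and alternatives were chosen with earlier results of these data known. Named genes were 20 chains and subunits of the brain basement membrane, astrocytes and microglia, and in each class up to 4 with the largest change in each direction among those passing under both constructs at a mean of at least 1 CPM. The 3 smallest p values were named where none passed, and in other lists the 2 largest changes each way. Other members, such as Col4a5, Col5a2 and Itga2, were named after their values were seen.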

Additional observations from a re-analysis of the deposited data

Results flagged for a closer look

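Single libraries stood apart within their group of 4 for 8 of 136 gene and group combinations tested with Dixon's ratio, and chance gives about 1 in 20. Each value lay far from the other 3 against the whole range of its group. In bARK(D110A) input replicate 3, Col15a1 at 3.68 CPM and Col4a1 at 24.8 CPM were the lowest of their groups. In bARK(D110A) IP replicate 1, Col1a1 at 1.06 CPM, Itgb2 at 0.591 CPM and Lamc1 at 70.2 CPM were the highest of theirs. Col3a1 at 0.53 CPM in bARK IP replicate 1, Itgal at 1.23 CPM in bARK input replicate 2 and Lama3 at 16.4 CPM in bARK IP replicate 4 were the lowest of theirs.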

How the results depend on the processing

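Values of single genes were tallied only for the 33 members named by rule in IP against input and the 3 members with the smallest p in each other comparison. Under the alternatives, 1523 of these values kept their direction and their side of the threshold, 2 changed sign, 6 newly passed and 2 no longer passed. The tally leaves out Col1a2, Col2a1, Col6a2, Col9a2 and Itgad, whose calls in bARK(D110A) ended without mice 1 and 3 of that construct. It also leaves out Col4a6 and Itgb7, which then newly passed in bARK. Of the counts of genes called, 362 stayed within 1.5 times the main count, and 2 rose from 0. Without bARK(D110A) IP replicate 1, Itgb4 in bARK(D110A) came to -0.00, and with each library left out in turn it ranged from -0.00 to 0.46. Scaled by library size alone, Lamb1 in bARK was -0.04. DESeq2 called 1 member and 3 other matrix and adhesion genes higher in bARK IP, where edgeR called 0. The cause of these changes was not tested.

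With each library left out in turn, 24 to 25 members were higher and 33 to 37 lower in IP in bARK(D110A), and 24 to 25 were higher and 32 to 35 lower in bARK. Without mice 1 and 3 of bARK(D110A), an alternative chosen after seeing the data, 23 were higher and 31 lower in bARK(D110A) and 26 and 34 in bARK. Library size as the only scaling gave 23 members higher and 39 lower in bARK(D110A), and 23 and 38 in bARK. Over all genes it moved the split from 5786 higher and 5891 lower to 4459 and 7473 in bARK(D110A), and from 5966 and 6044 to 4806 and 7333 in bARK. With the replicate block that pairs input and IP, 26 members were higher and 37 lower in bARK(D110A), 26 and 35 in bARK, and among the named genes it changed only the call of Lamb1 in bARK, to an adjusted p of 0.0421 at 0.10. Depth limits members near the filter, which had a few reads in some groups.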
